A study of Mus musculus with 13 samples.

Results

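Bone morphogenetic proteins (BMPs) and their secreted antagonists were measured in mandibular condylar cartilage, which caps the lower jaw where it meets the skull at the temporomandibular joint. The set holds 10 genes of the 18748 in the deposited table, taken by gene symbol: the ligands Bmp2, Bmp4, Bmp6, Bmp7 and Gdf5, and the antagonists Grem1, Nog, Chrd, Chrdl1 and Chrdl2. Messenger RNA was sequenced from 6 libraries of aged mice, 18 months old, and 7 libraries of young mice, 2 months old. The labels used here name no strain, sex, genotype or treatment and do not say whether each library came from 1 mouse. The p-values therefore set the age difference against the spread between these libraries, which may not be the spread between mice.

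BMPs are secreted dimers that bind paired type I and type II receptor kinases, which phosphorylate SMAD transcription factors in the receiving cell. In the skeleton they drive cartilage condensation, chondrocyte hypertrophy and bone formation, and Gdf5 marks the developing joint. Antagonists such as noggin, chordin and gremlin bind the ligands outside the cell and keep them from their receptors, and proteases of the Bmp1 and tolloid family cut chordin and so free the ligand.

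The RefSeq promoter table (build GRCm38.p6) held 4 of the 10 members, among them 3 of the 4 that differed between the ages. Their 250 bases before the transcript start are shown because BMP genes and antagonists are themselves often targets of SMAD signalling. The expression table was made with another build (GRCm39), so these coordinates hold for GRCm38.p6. They are chr2:113758649-113758898 on the minus strand for Grem1, chr13:38345466-38345715 on the plus strand for Bmp6, chr14:46390670-46390919 on the minus strand for Bmp4 and chr16:20732877-20733126 on the plus strand for Chrd. Capitals mark every match to either of 2 SMAD-type motifs. The first is GGCGCC, which reads the same on both strands. The second is CAGAC, searched on both strands, and no match overlapped another in these windows.
Grem1: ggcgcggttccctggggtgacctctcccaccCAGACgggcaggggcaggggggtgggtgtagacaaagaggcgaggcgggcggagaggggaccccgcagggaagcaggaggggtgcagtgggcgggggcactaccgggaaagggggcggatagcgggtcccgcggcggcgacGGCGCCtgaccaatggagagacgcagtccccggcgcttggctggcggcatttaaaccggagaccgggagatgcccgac
Bmp6: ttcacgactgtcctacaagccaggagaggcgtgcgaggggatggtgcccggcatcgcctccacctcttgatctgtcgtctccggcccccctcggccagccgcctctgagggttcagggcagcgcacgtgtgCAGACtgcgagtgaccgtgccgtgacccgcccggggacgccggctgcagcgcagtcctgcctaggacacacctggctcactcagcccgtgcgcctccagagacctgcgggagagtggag
Bmp4: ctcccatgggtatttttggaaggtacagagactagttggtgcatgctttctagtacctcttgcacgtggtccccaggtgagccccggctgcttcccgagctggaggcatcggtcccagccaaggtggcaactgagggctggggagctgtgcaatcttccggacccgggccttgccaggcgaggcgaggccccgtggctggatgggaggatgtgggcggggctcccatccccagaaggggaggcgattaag
Chrd: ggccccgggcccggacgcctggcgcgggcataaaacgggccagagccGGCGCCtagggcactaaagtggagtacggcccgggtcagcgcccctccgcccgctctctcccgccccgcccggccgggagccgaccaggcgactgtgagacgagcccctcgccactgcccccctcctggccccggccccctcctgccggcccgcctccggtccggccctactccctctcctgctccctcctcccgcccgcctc
GGCGCC occurred 1 time in the Grem1 and 1 time in the Chrd window, while 9.65% of 32536 distinct RefSeq promoter windows of the same length hold it. CAGAC occurred 1 time in the Grem1 and 1 time in the Bmp6 window, and 42.2% of all windows hold it. The Bmp4 window held neither. All 4 windows were rich in G and C, with 72.0% in Grem1, 68.8% in Bmp6, 63.2% in Bmp4 and 78.0% in Chrd, against a median of 52.4% over all windows. A match is a description of the letters and not a bound site.

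Library totals were between 16356839 and 17876681 expected counts in aged and between 17531694 and 18203443 in young libraries. Cartilage genes were present in every library: Sox9, the chondrocyte transcription factor, was at 49.1 ± 11.2 TPM in aged (SD, n = 6) and 42.9 ± 5.20 TPM in young libraries (SD, n = 7), and Col2a1, the main cartilage collagen, at 3205 ± 1498 TPM in aged and 11190 ± 2190 TPM in young libraries. Of 9 chondrocyte markers, 2 rose and 5 fell. The libraries also held markers of bone and marrow, muscle and fat, and these moved with age. All 8 erythroid and all 7 neutrophil markers rose, and 6 of 7 skeletal muscle markers rose, with summed levels of 6300 to 24660 TPM in aged and 854.5 to 7681 TPM in young libraries for muscle. The sums for erythroid markers were 506 to 2086 TPM in aged and 39.5 to 272.4 TPM in young libraries, and for neutrophil markers 5073 to 29870 TPM in aged and 3744 to 10950 TPM in young libraries. Of 6 osteoblast and osteocyte markers 5 fell, and their sums were 8996 to 18800 TPM in aged and 30490 to 41670 TPM in young libraries. Both tested adipocyte markers of 5 listed and 3 of 4 Schwann cell markers rose, while 2 of 5 endothelial markers fell, and the tendon and fibrous layer list had 2 that rose and 1 that fell of 7. No marker was at 0 in all libraries, and Plin1, Lep and Cidec of the adipocyte list were at 0 in some. Those genes were not tested and did not have higher means in aged libraries. Their means were 0.458, 0.0117 and 0.697 TPM in aged and 0.857, 0.0714 and 0.924 TPM in young libraries. Fabp4 made up most of the adipocyte sum, at 242.4 ± 92.1 TPM in aged and 90.3 ± 26.2 TPM in young libraries. In bulk tissue, fewer cells of a type and less RNA per cell cannot be told apart. The part of these other cells in the results for the BMP genes was not tested.

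Per gene length, Bmp6 led the set in aged cartilage, and Bmp4 and Bmp6 led it together in young cartilage. Mean levels in aged libraries ran from Bmp6 at 52.3 ± 14.0 TPM (SD, n = 6) through Bmp2 at 26.0 ± 8.11, Bmp4 at 25.4 ± 5.51, Bmp7 at 16.9 ± 6.93, Chrdl1 at 14.7 ± 2.09, Chrd at 11.4 ± 2.54, Nog at 7.68 ± 1.77, Grem1 at 4.82 ± 1.54 and Gdf5 at 4.68 ± 2.40 to Chrdl2 at 3.11 ± 1.49 TPM. In this order Bmp6 alone was separated from its neighbour, its lowest library (44.6 TPM) lying above the highest of Bmp2 (40.8 TPM). In young libraries the order was Bmp4 at 35.3 ± 4.82 TPM (SD, n = 7), Bmp6 at 34.6 ± 5.55, Bmp2 at 21.6 ± 2.48, Bmp7 at 16.0 ± 2.45, Chrd at 11.7 ± 1.43, Nog at 9.17 ± 1.4, Chrdl1 at 8.56 ± 1.28, Gdf5 at 3.16 ± 1.46, Chrdl2 at 2.07 ± 0.716 and Grem1 at 1.11 ± 0.268 TPM. There Bmp6 stood above Bmp2 and Chrdl1 above Gdf5 with no overlap between libraries, and the ranges of all other neighbours overlapped. By mean level Grem1 was the lowest of the 10 in young libraries and ranked 8 in aged libraries, where it was above Gdf5 in 3 of 6. Chrdl1 was above Chrd in 6 of 6 aged libraries.

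By the quasi-likelihood test of edgeR, adjusted over all tested genes, 4 of the 10 members passed the 0.05 threshold: Grem1, Chrdl1 and Bmp6 were higher and Bmp4 lower in aged cartilage. All 10 members passed the filter on low counts. Of all 14067 genes tested, 46.2% were called, 24.7% higher and 21.6% lower, so a count of 4 in 10 is near the background and says nothing particular about the set. The median log2 fold change was 0.35 over the 10 members and 0.014 over all tested genes. With library sizes alone, without TMM factors, the median of all tested genes was 0.24, 7034 genes were called higher and 1253 lower, where TMM factors gave 3471 higher and 3033 lower, and 5 members were higher and 1 lower. The split was 6227 higher and 1369 lower on log2(FPKM + 1) and 3884 higher and 2208 lower on log2(TPM + 1).

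**Figure D1:**
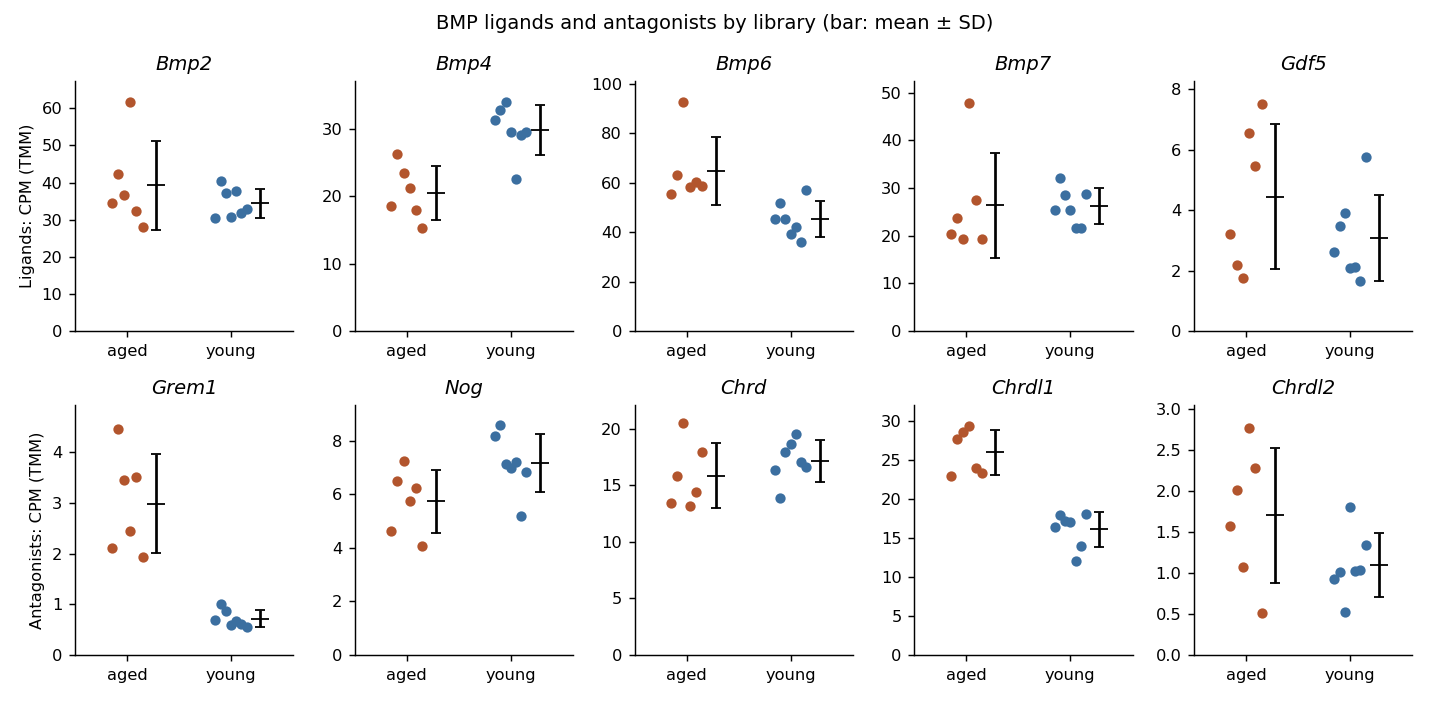
TMM-normalised CPM, the count of a gene scaled to a common library size, of the 5 ligands (upper row) and the 5 antagonists (lower row) in each library, aged left of young, each point 1 library and the bar the mean ± SD. Grem1 and Chrdl1 are the members whose aged and young libraries do not overlap in CPM, and 1 aged library stands apart in each of Bmp6 and Bmp7.

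Bmp6, a ligand that also governs iron balance in the liver, ranged from 55.3 through a median of 59.6 to 92.5 CPM in aged libraries, against 35.9, 45.4 and 57.2 CPM as lowest, median and highest in young libraries. Of the 6 aged libraries, 5 lay above the highest young one, aged replicate 1 lay below it, and aged replicate 3 was far above all others. The log2 fold change was 0.52 ± 0.13 (SE, edgeR adjusted p = 0.00514), or 1.43-fold. Without aged replicate 3 it was 0.38 (edgeR adjusted p = 0.00677), and the other 5 aged libraries averaged 59.2 ± 2.93 CPM. Aged replicate 3 also had the highest muscle sum (24660 TPM), the highest tendon and fibrous layer sum (1362 TPM) and the lowest erythroid and neutrophil sums (506 and 5073 TPM) of the aged libraries. In the gene annotation of build GRCm38, Bmp6 exons overlap those of Txndc5 on the opposite strand. Txndc5 was at 284.1 ± 24.4 TPM in aged and 317.1 ± 22.4 TPM in young libraries and was lower by a log2 change of −0.22 ± 0.08 (SE; edgeR, adjusted p = 0.0265). The labels describe the libraries as strand-specific but do not say whether the counting used the strand, without which reads of such a pair cannot be told apart.

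Bmp4, a ligand close in sequence to Bmp2, went the other way. It ran from 15.3 through a median of 19.9 to 26.3 CPM in aged libraries, against 22.5, 29.6 and 34.0 CPM in young libraries. Of the 6 aged libraries 4 lay below the lowest young one, young replicate 5, which was itself apart from the other young libraries (29.1 CPM and above). The log2 fold change was −0.54 ± 0.12 (SE, edgeR adjusted p = 0.00254), or 1.46-fold lower. Over 12 other settings it ran from −0.59 to −0.31 and stayed called. Bmp4 exons overlap Gm15217 on the opposite strand, a gene absent under that symbol from the deposited data. The level of Bmp4 divided by that of Bmp6, both in TPM, was 0.389 to 0.639 in aged and 0.795 to 1.26 in young libraries, with no overlap. The ratio sets the only ligand called lower over the only ligand called higher, so its separation follows in part from that choice. It is a description, with no test.

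Bmp2, which starts fracture healing and chondrocyte maturation, had 27.95, 35.5 and 61.8 CPM as lowest, median and highest in aged libraries, against 30.5, 32.8 and 40.3 CPM in young libraries. The ages overlapped, and the highest value belonged to aged replicate 4. Its log2 change of 0.19 ± 0.15 (SE, edgeR adjusted p = 0.341) was not called, was 0.007 without aged replicate 4, and was called at 0.41 with library sizes alone (edgeR adjusted p = 0.0248). Bmp7, a ligand best known from kidney and eye development, had 19.3, 22.1 and 47.8 CPM in aged libraries, against 21.6, 25.4 and 32.1 CPM in young libraries. Here too aged replicate 4 was the highest, while 3 of the 6 aged libraries lay below every young one. The log2 fold change was 0.008 ± 0.20 (SE, edgeR adjusted p = 0.98), and −0.25 without aged replicate 4 (edgeR adjusted p = 0.0974). Aged replicate 4 also had a chondrocyte marker sum of 18910 TPM, within the young range of 13980 to 22130 TPM, where the other aged libraries had 8442 to 12420 TPM. It had the highest osteoblast and osteocyte sum of the aged libraries as well, at 18800 TPM. The chondrocyte sum adds markers that rose to markers that fell. Comp, which rose, was at 4261 to 9407 TPM in aged and 2664 to 3464 TPM in young libraries. Col2a1, which fell, was at 2048 to 5879 TPM in aged and 8543 to 14390 TPM in young libraries, with no overlap.

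Gdf5, the joint-forming ligand whose human gene carries variants tied to osteoarthritis, spread widely within both ages. It had 1.75, 4.34 and 7.51 CPM as lowest, median and highest in aged libraries, against 1.65, 2.61 and 5.75 CPM in young libraries. Aged replicates 4, 5 and 6 were high and aged replicates 2 and 3 low, and the ages overlapped although aged replicates 4 and 6 lay above every young library. The log2 change of 0.53 ± 0.37 (SE, edgeR adjusted p = 0.264) was not called, and its SE was 0.37 where that of Bmp6 was 0.13. Its exons overlap Gm15557 on the opposite strand, a gene absent under that symbol from the deposited data.

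Grem1, which encodes gremlin, an antagonist of Bmp2, Bmp4 and Bmp7, had the largest fold change of the 10. It ranged from 1.94 through a median of 2.95 to 4.47 CPM in aged libraries, against 0.550, 0.662 and 1.01 CPM in young libraries, so that every aged library was above every young one. In CPM, 19.2% of all tested genes had no overlap between the ages, and among the members this held for 2 of 10, Grem1 and Chrdl1. In TPM, Bmp6 did not overlap either, with 44.6 TPM as the lowest aged and 43.4 TPM as the highest young library. The log2 change of Grem1 was 2.06 ± 0.23 (SE, edgeR adjusted p = 1.17e-05), or 4.16-fold. The gene was low in young libraries, with 9 to 16 expected counts each and at least 10 in 6 of 7, against 38 to 82 in aged libraries. The 3 aged libraries with the highest Grem1, replicates 2, 3 and 5 at 4.47, 3.45 and 3.52 CPM, were also those with the highest muscle sums, at 21590, 24660 and 19010 TPM, and the highest adipocyte sums, at 349.4, 328.1 and 344.5 TPM. Aged replicates 1, 4 and 6 had 2.12, 2.44 and 1.94 CPM of Grem1 at muscle sums of 6300, 9032 and 7168 TPM. Other lists sorted the aged libraries in the same way. Aged replicates 2, 3 and 5 also had the highest endothelial sums of the aged libraries, at 272.5, 298.2 and 247.5 TPM. Their erythroid sums were the lowest of the aged libraries, at 710.7, 506 and 1346 TPM. Among the young libraries, replicate 2 had the highest Grem1 (1.01 CPM). It also had the highest muscle (7681 TPM), adipocyte (146.9 TPM) and endothelial (316.3 TPM) sums. The other young libraries did not follow this order. Young replicate 4 had 0.583 CPM of Grem1 at a muscle sum of 6189 TPM and an adipocyte sum of 113.3 TPM. Young replicate 3 had 0.877 CPM at sums of 2088 and 77.3 TPM. The part of muscle, fat or any other cell type in the rise of Grem1 was not tested.

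Chrdl1, a chordin-like antagonist, ranged from 22.95 through a median of 25.8 to 29.4 CPM in aged libraries, against 12.1, 17.1 and 18.1 CPM in young libraries. The ages did not overlap, and young replicate 5 was the lowest library. Its log2 fold change was 0.69 ± 0.10 (SE, edgeR adjusted p = 9.76e-05), or 1.61-fold. Aged replicates 2, 3 and 4 had 27.7, 28.6 and 29.4 CPM at muscle sums of 21590, 24660 and 9032 TPM. Aged replicates 1, 5 and 6 had 22.95, 23.95 and 23.35 CPM at muscle sums of 6300, 19010 and 7168 TPM, and the part of muscle in the result was not tested. The related Chrdl2, known from joint surface cartilage, was low, with 10 to 50 expected counts in aged and 9 to 31 in young libraries. It had 0.511, 1.80 and 2.77 CPM in aged libraries, against 0.526, 1.02 and 1.81 CPM in young libraries. Aged replicate 6 was the lowest library of all and aged replicate 4 the highest. Its log2 change of 0.63 ± 0.34 (SE, edgeR adjusted p = 0.15) was not called, and was called at 0.82 without aged replicate 6 (edgeR adjusted p = 0.0312).

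Nog and Chrd, the classical antagonists noggin and chordin, were not called. Nog had 4.09, 6.01 and 7.24 CPM as lowest, median and highest in aged libraries, against 5.20, 7.14 and 8.596 CPM in young libraries, and 5 of the 6 aged libraries lay at or below the young median. Its log2 fold change was −0.32 ± 0.15 (SE, edgeR adjusted p = 0.0859), with an adjusted p of 0.0353 without aged replicate 3 and 0.0382 without young replicate 6. Chrd had 13.1, 15.1 and 20.5 CPM in aged libraries, against 13.8, 17.1 and 19.6 CPM in young libraries. Its log2 fold change was −0.11 ± 0.11 (SE, edgeR adjusted p = 0.424) and above 0 with library sizes alone and on the FPKM scale. Chrd exons overlap those of Thpo, a gene on the opposite strand at 3.06 ± 1.15 TPM in aged and 2.46 ± 0.633 TPM in young libraries that was not called.

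**Figure D2:**
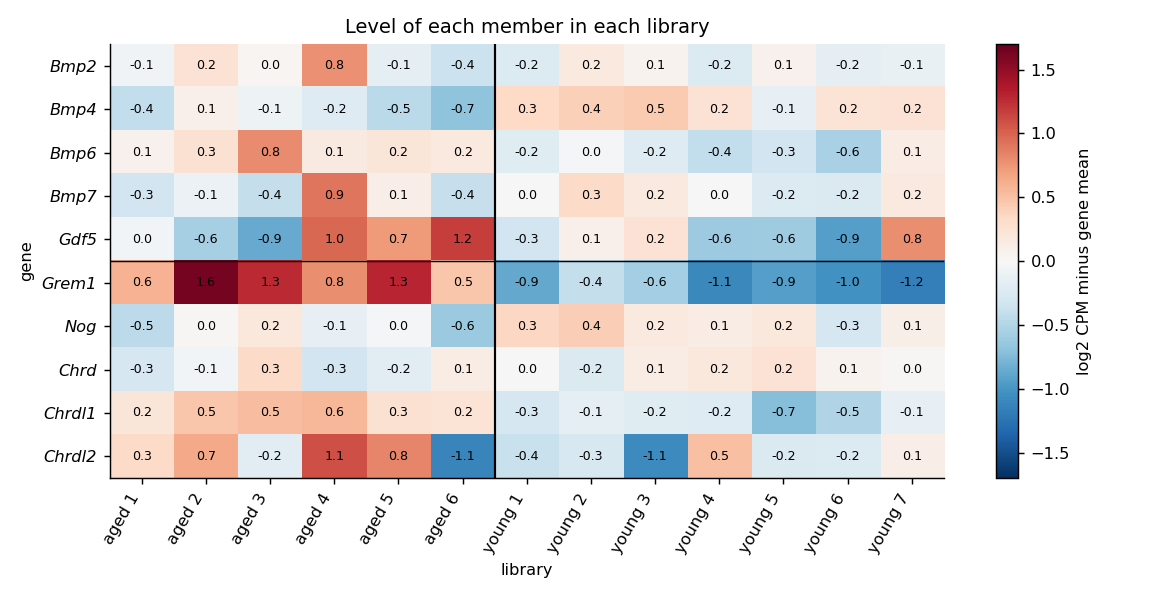
Log2 CPM of each member in each library minus the mean of that gene over the 13 libraries, aged libraries left of young ones and ligands above antagonists. Grem1 and Chrdl1 are each above their mean in all 6 aged and below it in all 7 young libraries. Bmp2 and Bmp7 both have their highest value in aged replicate 4, and Gdf5 and Chrdl2 spread within both ages.

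Summed over the members, the 5 ligands came to 99.3 to 154.0 TPM (median 118.7) in aged and 94.6 to 124.9 TPM (median 108.4) in young libraries. The 5 antagonists came to 33.5 to 52.1 TPM (median 41.1) in aged and 27.8 to 36.1 TPM (median 32.8) in young libraries. Both sums overlapped between the ages, and so did the ligand sum divided by the antagonist sum, at 2.77 to 3.56 in aged and 2.90 to 3.82 in young libraries. Shares in these sums were taken for the called members alone, Bmp4, Bmp6, Grem1 and Chrdl1, so they largely restate those calls. The shares of Bmp4, Grem1 and Chrdl1 did not overlap between the ages. Bmp4 took 17.4 to 25.2% of the ligand sum in aged and 27.3 to 35.6% in young libraries, and Bmp6 took 30.85 to 52.4% in aged and 28.3 to 35.7% in young libraries, which overlapped. Grem1 took 8.80 to 15.5% of the antagonist sum in aged and 2.59 to 4.74% in young libraries, and Chrdl1 took 32.3 to 38.7% in aged and 19.97 to 29.1% in young libraries. These sums and shares are descriptions, with no test.

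**Figure D3:**
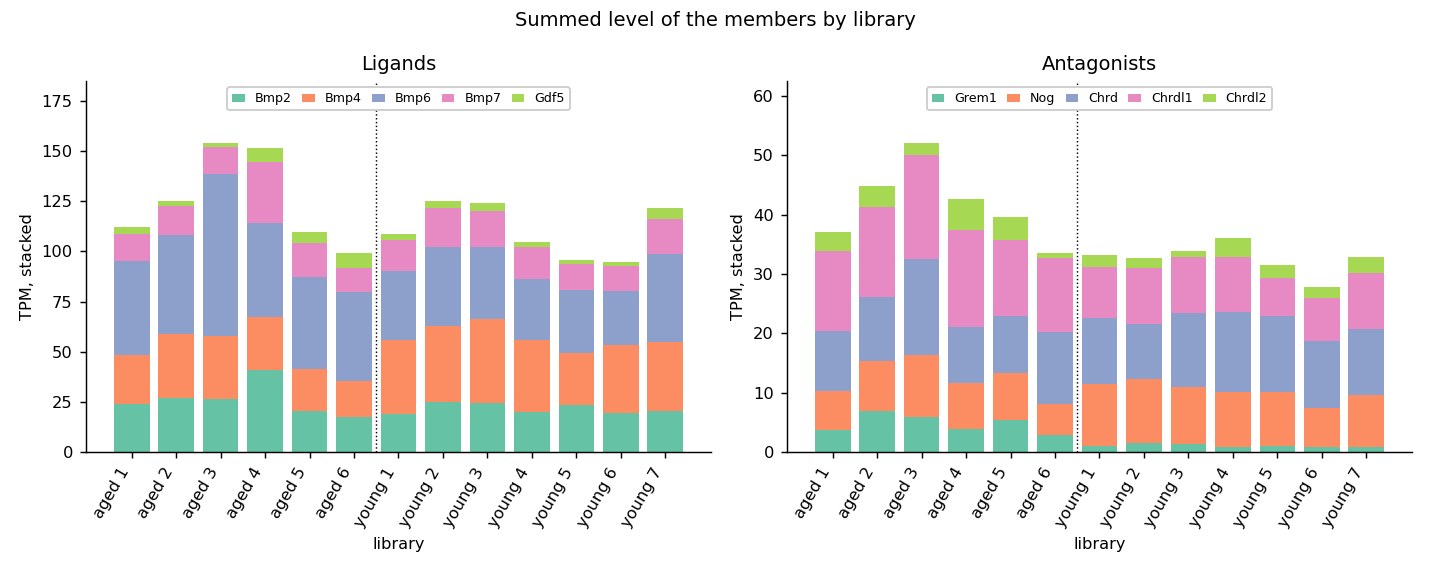
Level of the 5 ligands (left) and the 5 antagonists (right) in TPM, stacked for each library, aged libraries left of young ones. The Bmp4 segment is a smaller share and the Grem1 and Chrdl1 segments are larger shares of the stack in the aged libraries, and aged replicates 3 and 4 have the tallest ligand stacks, at 154.0 and 151.5 TPM.

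The wider pathway was read from 6 lists that hold 55 other genes, of which 54 were in the table and 49 were tested: 14 rose, 15 fell and 20 were not called, where 24.7% of all 14067 tested genes were called higher and 21.6% lower. With library sizes alone the split was 24 higher and 8 lower. Smad6, Smad7 and Bambi each stand in 2 lists, are counted in both and enter the totals once. No list was tested as a set.

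Among 7 tested other ligands of the family, 2 rose and 2 fell, with a median log2 change of −0.33. Gdf10, also called Bmp3b, was at 76.3 ± 19.9 TPM in aged (SD, n = 6) and 19.6 ± 2.29 TPM in young libraries (SD, n = 7), with no overlap. Its log2 change was 1.88 ± 0.15 (SE; edgeR, adjusted p = 7.23e-07). Its mean in aged libraries was above that of each of the 5 ligands of the set. Gdf6, a relative of Gdf5 that acts in joint formation, was low, with 0.68 to 5.57 TPM in aged and 0.19 to 0.70 TPM in young libraries (log2 fold change 2.35 ± 0.49, SE, edgeR adjusted p = 0.00155). Gdf11, which patterns the axial skeleton, fell to 6.41 ± 1.08 TPM in aged libraries, against 11.6 ± 1.04 TPM in young libraries, and Bmp3, a family member that restrains bone formation, fell by 0.56 on the log2 scale. The call of Bmp3 was lost with library sizes alone (−0.32, edgeR adjusted p = 0.118) and on both FPKM scales.

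Of 11 tested other antagonists and modulators, 6 rose and 2 fell (median 0.42). Follistatin, Fst, which binds activins and some BMPs, was at 6.65 ± 1.59 TPM in aged and 2.74 ± 0.689 TPM in young libraries (log2 fold change 1.21 ± 0.19, SE, edgeR adjusted p = 0.00019). Bmper, a secreted BMP-binding protein, was at 9.19 ± 1.94 TPM in aged and 4.10 ± 0.798 TPM in young libraries (log2 fold change 1.10 ± 0.17, SE, edgeR adjusted p = 0.000135). Neither gene overlapped between the ages. Sost, which encodes sclerostin, an inhibitor of Wnt signalling made by osteocytes, was named after its values were seen because it was the most abundant of the list. It was at 839.5 ± 323 TPM in aged and 445.8 ± 183 TPM in young libraries (log2 fold change 0.84 ± 0.29, SE, edgeR adjusted p = 0.03), while 5 of the 6 osteoblast and osteocyte markers fell. The call of Sost was lost in limma-voom with library weights and without aged replicate 2, aged replicate 3, young replicate 6 or young replicate 7. Kcp, a chordin-like protein, fell by 1.03 at 0.23 to 0.91 TPM in aged and 0.66 to 1.36 TPM in young libraries, and Fstl1, a secreted glycoprotein of the follistatin-like group, fell by 0.50. Fstl1 in aged replicate 6 lay above all young libraries in CPM, and its log2 change was −0.70 without that library. The call of Fstl1 was lost with library sizes alone (−0.27, edgeR adjusted p = 0.148) and on both FPKM scales.

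Bmp1, the protease that cuts chordin and trims procollagens, was the 1 of 3 chordin-cleaving enzymes that changed. It was at 215.5 ± 29.9 TPM in aged and 489.1 ± 34.0 TPM in young libraries, with no overlap. Its log2 change was −1.26 ± 0.08 (SE; edgeR, adjusted p = 6.44e-08). Its relatives Tll1 and Tll2 were below 1 TPM on average and were not called. The fall of Bmp1 went beside that of the osteoblast and osteocyte markers, whose part in it was not tested.

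Among 12 receptors and co-receptors 4 were higher and 3 lower (median 0.07), but with library sizes alone and on both FPKM scales 7 were higher and 1, Bambi, was lower. The type I receptor Bmpr1a, at 44.2 ± 5.46 TPM in aged and 39.9 ± 3.56 TPM in young libraries, was not called (log2 fold change 0.07 ± 0.09, SE, edgeR adjusted p = 0.55), though it was called higher with library sizes alone and on both FPKM scales. Another type I receptor, Acvr1, was at 49.9 ± 4.93 TPM in aged and 55.5 ± 2.97 TPM in young libraries and fell by 0.23 on the log2 scale, a call lost with library sizes alone and on the FPKM and TPM scales. Both were named after their values were seen. Bmpr1b, the type I receptor that Gdf5 prefers, rose at 0.11 to 1.52 TPM in aged and 0.05 to 0.32 TPM in young libraries (log2 fold change 1.87 ± 0.51, SE, edgeR adjusted p = 0.00849). Hjv, which encodes the co-receptor hemojuvelin of skeletal muscle and liver, was at 62.1 ± 31.4 TPM in aged and 13.8 ± 11.7 TPM in young libraries and rose by 2.1 ± 0.52 on the log2 scale (SE, edgeR adjusted p = 0.00464), beside the muscle markers, whose part in it was not tested. The pseudoreceptor Bambi, which takes the place of a signalling receptor, was at 67.0 ± 16.3 TPM in aged and 144.4 ± 13.8 TPM in young libraries (log2 fold change −1.17 ± 0.14, SE, edgeR adjusted p = 1.82e-05), with no overlap. The type II receptor Bmpr2 fell by 0.32 on the log2 scale. Its call was lost with library sizes alone (−0.09, edgeR adjusted p = 0.242) and on both FPKM scales.

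Inside the cell, 6 of 8 SMAD effectors and regulators fell and none rose in the test with TMM factors (median −0.32), where 21.6% of all tested genes were called lower. With library sizes alone 3 fell and 2 rose, and on log2(FPKM + 1) 3 fell and 1 rose. The call of Smad9, a further transducer of BMP signals, had an edgeR adjusted p of 0.0487 and was kept under 5 of 12 alternatives and with 2 of the 13 libraries left out in turn. Smad1, a transducer of BMP signals, was at 18.5 ± 2.56 TPM in aged and 27.0 ± 2.11 TPM in young libraries (log2 fold change −0.62 ± 0.08, SE, edgeR adjusted p = 2.49e-05). Smad6, the inhibitory SMAD of the pathway, was at 31.4 ± 4.62 TPM in aged and 46.6 ± 4.42 TPM in young libraries (log2 fold change −0.64 ± 0.08, SE, edgeR adjusted p = 3.17e-05). Both were lower without overlap, and both kept their call with library sizes alone.

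Of 11 genes known as BMP targets, 2 rose and 3 fell (median 0.01). Id3, an inhibitor of helix-loop-helix transcription factors, was at 565.4 ± 78.7 TPM in aged and 993.6 ± 95.5 TPM in young libraries (log2 fold change −0.83 ± 0.09, SE, edgeR adjusted p = 9.1e-06), and Smad6 and Bambi are the other members that fell. Its relatives Id1, Id2 and Id4 were not called, with log2 fold changes of 0.03, −0.09 and 0.22. With library sizes alone Id1 and Id4 were called higher, and 5 targets rose and 3 fell. Id4 was also called higher on both FPKM scales and without aged replicate 6. The homeobox genes Msx2 and Msx1, which act in jaw and skull growth, rose. Msx1 was at 13.03 ± 2.36 TPM in aged and 8.53 ± 0.857 TPM in young libraries (log2 fold change 0.55 ± 0.12, SE, edgeR adjusted p = 0.00252). Msx2, with a log2 change of 1.18 ± 0.30 (SE, edgeR adjusted p = 0.00558), was at 0.71 to 1.79 TPM in aged and 0.26 to 1.08 TPM in young libraries.

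**Figure D4:**
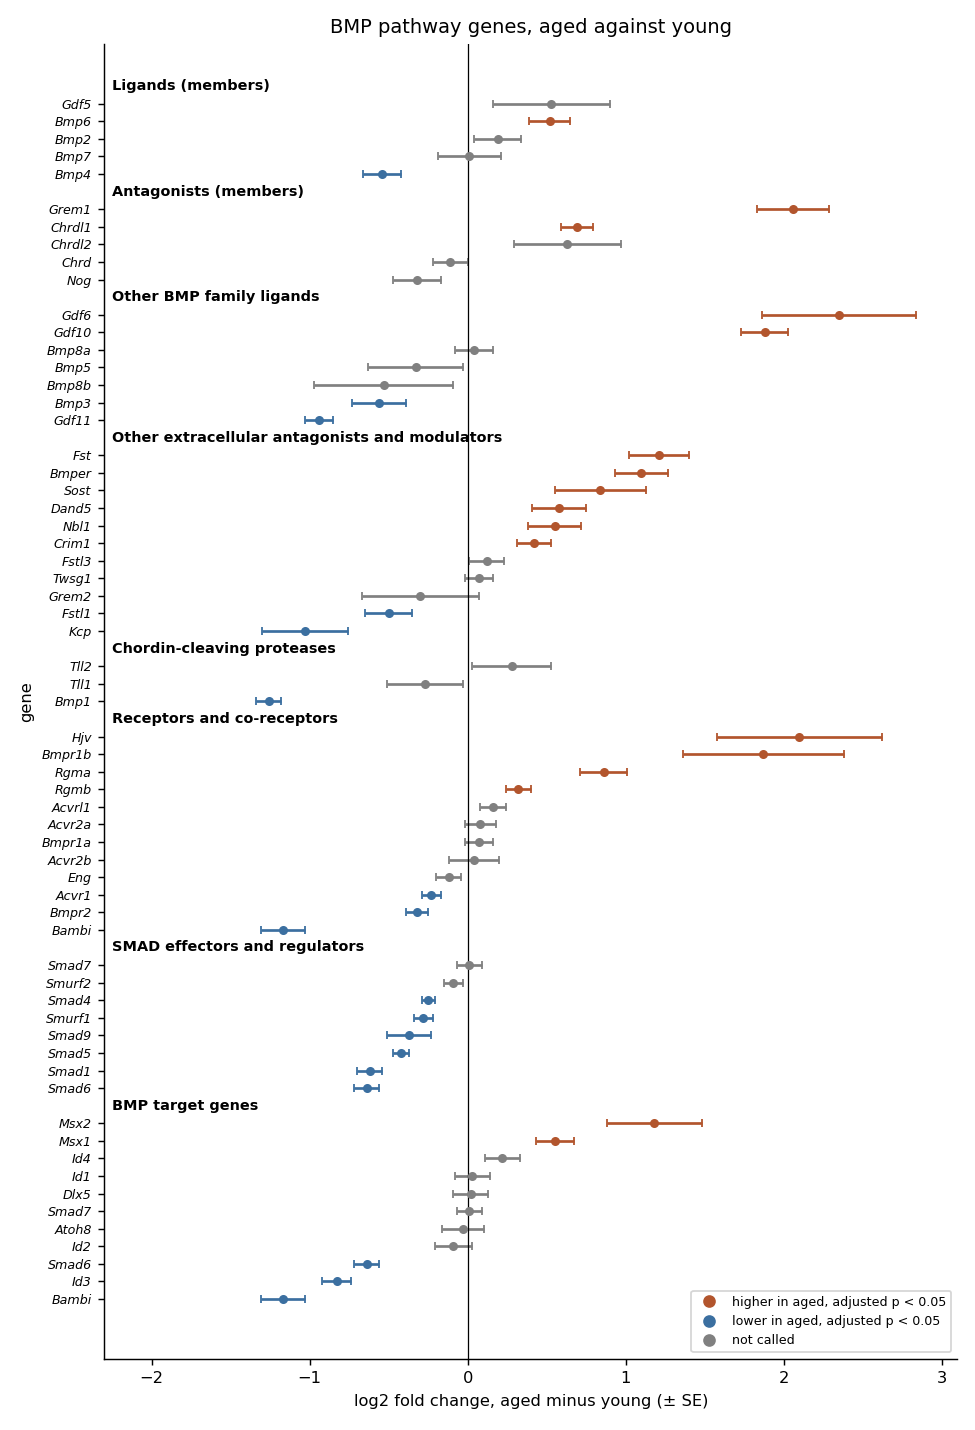
Log2 fold change of aged minus young with its SE for the 10 members and the tested genes of the 6 pathway lists, from the test across all genes, brown for higher and blue for lower at an adjusted p under 0.05. Grem1 stands at 2.06 among the antagonists, Bmp6 at 0.52 and Bmp4 at −0.54 among the ligands, and 6 of 8 genes of the SMAD list lie below 0 and are called.

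The genes most like the called members were found by the smallest root mean squared difference of log2 CPM, each gene centred on its mean, over the 13 libraries and 12842 other genes. For Grem1 they were the amylase gene Amy1, the ubiquitin protease gene Usp2 and the mineralocorticoid receptor gene Nr3c2, at differences of 0.28, 0.30 and 0.31 against a median of 1.01. For Chrdl1 they were Whrn, Gpd2 and Clec2d at 0.14, 0.15 and 0.16 against a median of 0.45. For Bmp4 they were Rhobtb1, Clec14a and Nrp2 at 0.09, 0.10 and 0.11 against a median of 0.40. The measure includes the difference between the ages, so a gene with a like fold change is close by it. It is given as a description.

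**Figure D5:**
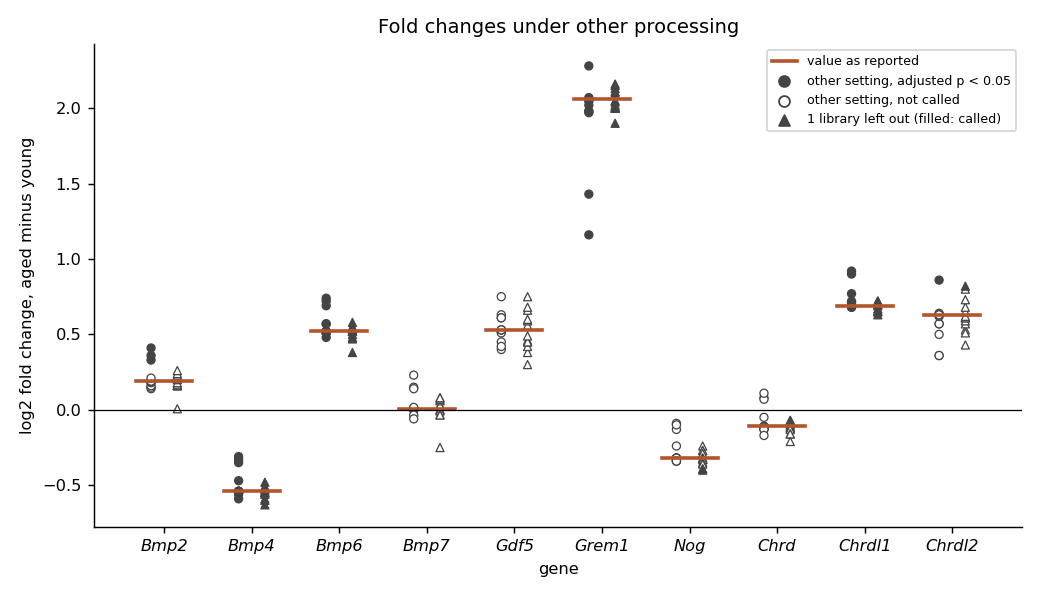
Log2 fold change of each member, aged minus young, as reported (line), under 12 other settings (circles) and with 1 library left out (triangles), filled where the adjusted p is under 0.05. Grem1, Chrdl1, Bmp6 and Bmp4 stay called under every one of them, while the points of Bmp7 and Chrd lie on both sides of 0 or close to it.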

How the data were processed

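Libraries of mandibular condylar cartilage were assigned to an age from the labels. The submitters' processing notes name RSEM 1.3.1, Bowtie2 2.3.4.3, DESeq2 1.4.5, HISAT2 2.1.0 and build GRCm39 without their roles. The gene annotation used for counting is not given in these sources. The authors deposited expected counts (5.3% of values not whole), TPM and FPKM per gene, per the file headers. TPM and FPKM are scaled for gene length and depth. After rounding, expected counts went through edgeR 4.0.16 under R 4.3.3: filterByExpr (minimum count 10, minimum total 15), TMM factors, a robust quasi-likelihood fit and Benjamini-Hochberg adjustment over 14067 genes at 0.05. The SE is the log2 fold change divided by the square root of F. CPM values are TMM-normalised and TPM values are as deposited.

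The members and gene lists were chosen with earlier results of these data known. Named beside the members are, from each pathway list, up to 2 called genes with the largest rise and up to 2 with the largest fall, and the 3 genes nearest in profile to the 2 called members with the largest rise and those with the largest fall (mean TPM of at least 1, prior count 2). Alternatives were 2 other filters, library sizes alone, RLE and upper-quartile factors, DESeq2 1.42.0, limma 3.58.1 on voom values with and without library weights, on log2(FPKM + 1), log2(FPKM + 0.1) and log2(TPM + 1) of the same genes, a replicate block, and each library left out. Library pairs within an age differed by far more than sampling noise (chi-square per degree of freedom at least 10.1), so none was taken as a duplicate. The test was run on simulated counts of 14000 genes, with 50 genes changed at each of 1.5-, 2-, 4- and 8-fold. It recovered 76%, 88%, 96% and 100% of them, and 4.76% of its calls were false. Far fewer genes were changed there than were called here, so these rates may not hold for these data. Figures were drawn with matplotlib 3.10.9.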

Additional observations from a re-analysis of the deposited data

Results flagged for a closer look

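Among 56 groups of libraries examined, 1 age of 1 gene each, 5 had a library farther from the rest than Dixon's 95% limit, where chance gives about 1 in 20. Bmp6 was 92.5 CPM in aged replicate 3, with the next library at 63.3 CPM, and averaged 59.2 ± 2.93 CPM without it (SD, n = 5). Bmp7 was 47.8 CPM in aged replicate 4, with the next at 27.6 CPM, and averaged 22.1 ± 3.59 CPM without it (SD, n = 5). Gdf11 was 21.8 CPM in the same library, with the next at 15.8 CPM. Fstl1 was 397.0 CPM in aged replicate 6, with the next at 238.0 CPM. Bmp4 was 22.5 CPM in young replicate 5, with the next at 29.1 CPM.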

How the results depend on the processing

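Grem1, Chrdl1, Bmp6 and Bmp4 kept their direction and their call under all 12 alternatives and with each of the 13 libraries left out. Grem1 ran from 1.16 to 2.28 under the alternatives, its lowest value on log2(FPKM + 1), a scale that understates low genes. With library sizes alone Bmp2 and Chrdl2 became called, at 0.41 and 0.86, and Chrd reversed to 0.11. On log2(FPKM + 1) and log2(FPKM + 0.1), Bmp2 became called at 0.33 and 0.36, and Chrd reversed to 0.07 and 0.08. Bmp7, near 0, reversed to −0.003 with upper-quartile factors and −0.06 with limma-voom. The TMM factors were 1.044 to 1.155 in aged and 0.903 to 0.958 in young libraries. With library sizes alone, which drops these factors, the log2 changes of all members moved up together by a similar amount. Bmp4 went from −0.54 to −0.31 and Grem1 from 2.06 to 2.28. The cause of the changes under the other settings was not tested. With 1 library left out, Bmp7 ran from −0.25 to 0.08, Nog from −0.40 to −0.24 and Chrdl2 from 0.43 to 0.82. With the replicate number as a block, Bmp7 was −0.035, 5771 genes were called against 6504, and the same 4 members were called. The numbers were not taken to pair the libraries, since the labels name no pairing. The correlation of deviations between libraries of the same number ran from −0.12 to 0.258 over the 6 numbers. Libraries of different numbers were not compared, so these values cannot decide whether the numbers pair them. Grem1, Gdf5 and Chrdl2 have under 100 expected counts in most libraries, so counting error adds to their spread.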
